A study of Mus musculus with 2 samples.

Results

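The members described here are 10 genes of the lipid-associated macrophage program: Gpnmb, Trem2, Tyrobp, Spp1, Lgals1, Lgals3, Apoe, Ch25h, Lgmn and Hvcn1. They were found by name, as the array rows whose platform annotation gives exactly 1 gene symbol and whose symbol is on that list. This gave 10 rows for 9 of the 10 genes, out of 41345 rows and 22180 named genes in all; Ch25h has 2 rows, and no row is annotated to Spp1 alone, so Spp1 was not analysed here. The study profiled alveolar macrophages, the resident phagocytes of the lung airspaces, on Affymetrix arrays, using adult mice of the C57BL6 strain, to ask how loss of the lipid kinase PIKfyve alters their transcripts. The wild type sample carried floxed Pikfyve alleles without Cre, and the PIKfyve KO sample carried the same floxed alleles with LysM-Cre, a recombinase expressed from a locus active in myeloid cells generally and not in alveolar macrophages alone. The mice were littermates, both samples were DAPI-negative, Siglec-F-positive and CD11c-positive lung cells sorted after collagenase digestion, and cDNA was amplified before labelling. Each genotype had 1 array, and how many mice it stands for is not stated in the labels.

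Lipid-associated macrophages are a state that phagocytes enter when they take up and store much lipid, described in fat tissue, atherosclerotic plaques, brain and lung. TREM2 is a surface receptor for lipids and lipoproteins that signals through the adaptor TYROBP (DAP12) and is needed for much of this program. Other genes of the program encode lysosomal proteins and proteases, lipid carriers, galectins and secreted matrix proteins. PIKfyve makes phosphatidylinositol 3,5-bisphosphate on endosomes and lysosomes, and cells without it form swollen, vacuole-like endolysosomes.

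All values below are RMA values, which are array signals on a log2 scale, and each difference is the array labelled knockout minus the array labelled wild type. With 1 array a genotype there is no replicate error and no test, so differences and folds describe these 2 arrays. The row of Pikfyve itself read 5.68 with the wild type label and 5.95 with the knockout label. No source used here places its probes inside or outside the deleted segment, so this row is no check of the genotypes, and arrays are named by their labels throughout. Background was taken as the 95th percentile of 1428 olfactory, vomeronasal and taste receptor genes, 5.37 for wild type and 5.31 for knockout. A gene entered the comparison if its average over the arrays was at least 5.13, the median row. This kept 12516 genes, and all 9 members with a row passed and lay above background on both arrays. Of the alveolar macrophage markers, 18 of 18 with a named row lay above background on both arrays; Ear1 and Ear2 had no row with 1 symbol in the table used here. The sort markers read 9.27 and 8.54 for Siglecf and 10.03 and 10.39 for Itgax, which encodes CD11c. Bulk arrays cannot tell fewer cells of a type from less RNA per cell.

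Of the 9 measured members, 8 read higher in the array labelled knockout, though the size of the difference varied widely. Trem2, Gpnmb and Lgmn were at least 2-fold higher, and Ch25h was at least 1.5-fold higher. Apoe, Tyrobp, Lgals3, Lgals1 and Hvcn1 were less than 1.5-fold apart. Among all genes analysed, 0.927% were at least 2-fold higher, 4.45% at least 1.5-fold higher and 48.9% higher by any amount, against 3, 4 and 8 of the 9 members. No member was 1.5-fold lower, where 2.66% of all genes were, and none was 3-fold higher, where 0.296% were. The median difference of the 9 members was 0.34 and that of all genes analysed was 0.00. Most members are bright, and bright genes as a whole read somewhat higher. Genes were put in 20 bins of mean level with about equal numbers of genes. The bins of Trem2, Gpnmb, Lgmn, Ch25h, Tyrobp, Lgals3 and Lgals1 had median differences of 0.12 to 0.15. For the bin of Hvcn1 that median was 0.03 and for that of Apoe -0.01. Tyrobp and Lgals1, with mean levels of 13.10 and 13.11, shared the brightest bin with Gpnmb, at 10.56. The median of that bin thus covers a wide range of levels. Measured from the median of its bin, Lgals1 differed by -0.02, Lgals3 by 0.02, Hvcn1 by -0.05 and Tyrobp by 0.08. As a yardstick of scatter, the local spread is the scaled median absolute deviation of the differences of genes in the same bin. It ranged from 0.20 to 0.33. Tyrobp, Lgals1, Lgals3 and Hvcn1 differed by less than 1 local spread, while 3 of the 9 members were at least 3 local spreads higher, as were 1.57% of all genes.

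**Figure D1:**
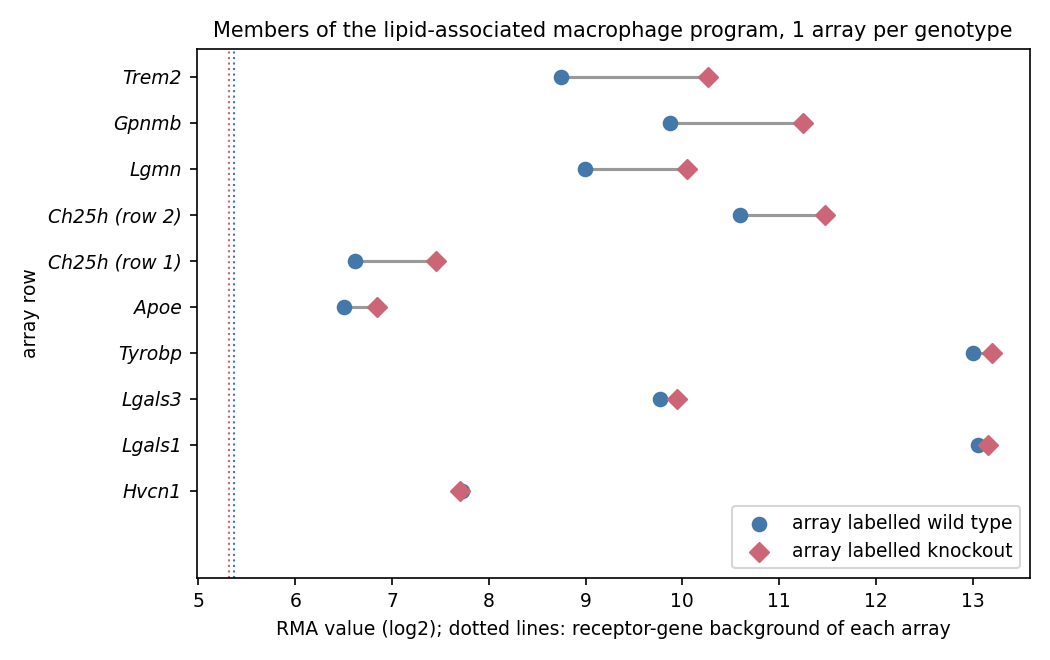
RMA values (log2, horizontal axis) of the 10 rows of the 9 measured members, with circles for the array labelled wild type, diamonds for the array labelled knockout and dotted lines for the background level of each array. The wide gaps are those of Trem2, Gpnmb, Lgmn and both rows of Ch25h, while the symbols of Hvcn1 overlap.

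**Figure D2:**
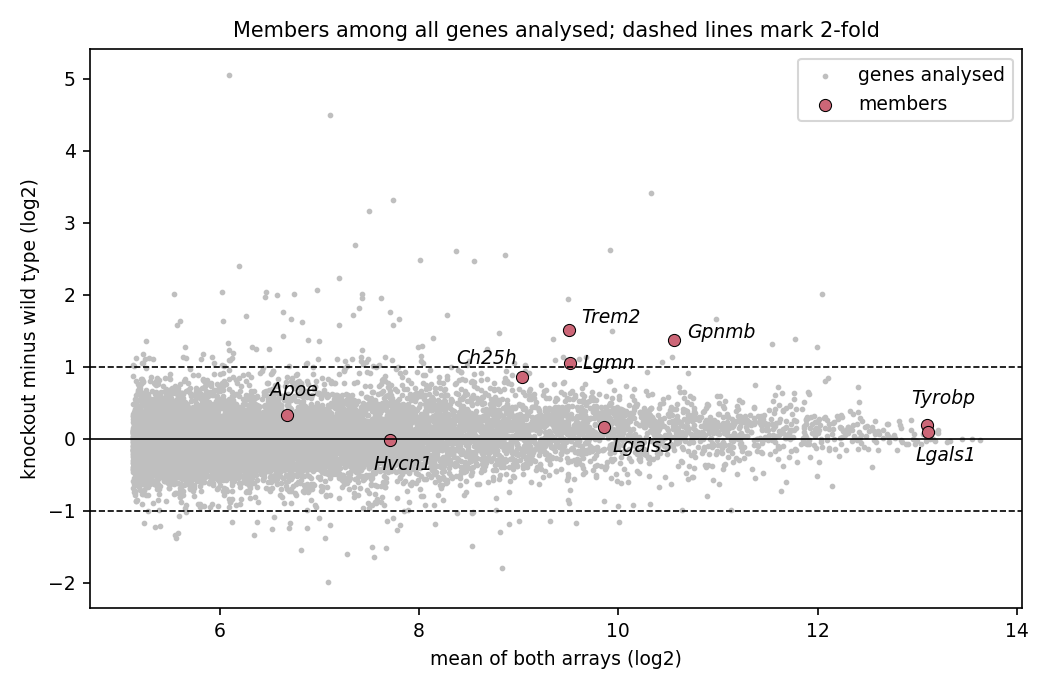
Difference between the arrays (knockout minus wild type, log2) against the mean of both arrays (log2) for 12516 genes in grey and the 9 measured members in red. Trem2, Gpnmb and Lgmn lie above the dashed line at 2-fold, and Tyrobp and Lgals1 lie at the right edge among the brightest rows.

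Trem2, the lipid-sensing receptor, had the largest difference of the members. It read 8.75 with the wild type label and 10.26 with the knockout label, which is 1.52 log2 units or 2.86-fold higher. That difference was 5.05 local spreads and ranked 41 from the top of the 12516 genes. Its partner Tyrobp, the adaptor that carries the activating motif for TREM2 and several other receptors, read 13.003 and 13.198, a difference of 0.20. The brightest bin of genes, which holds Tyrobp but also genes as dim as Gpnmb at 10.56, had a median difference of 0.12. After loess centring Tyrobp differed by 0.13. Only 96 rows were brighter than the Tyrobp row with the wild type label and 53 with the knockout label. Whether so bright a row could still register a larger difference was not tested.

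Receptors of the TREM, CD300, SIRP and related families and the adaptors Fcer1g and Hcst were set beside this pair; not every one of them is known to use TYROBP. Of 14 that passed the filter, 9 read higher and 4 lower, with a median difference of 0.13. Clec5a, a lectin receptor that signals through TYROBP, read 9.10 and 10.24, a difference of 1.14. Cd33, a sialic acid-binding receptor, read 9.49 and 10.12. Klra2, of the Ly49 receptor family, was the member of the list 1.5-fold lower and read 11.32 and 10.70. The TREM family genes differed among themselves: Treml2 read 5.23, which is under background, and 5.80, whereas Trem1 differed by -0.18 and Trem3 by -0.12. Treml4 differed by 0.10. These 3 last genes, Trem1, Trem3 and Treml4, were chosen after their values were seen. The adaptor genes Hcst and Fcer1g, likewise outside the naming rule, differed by 0.53 and 0.09.

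Gpnmb, a transmembrane glycoprotein that accumulates in macrophages with loaded or stressed lysosomes, read 9.88 and 11.25. The difference of 1.37, or 2.58-fold, was 6.72 local spreads, the most of any member, and ranked 48 of 12516. On the linear scale its signal was 940 and 2429 units. GPNMB binds syndecan-4 and integrins, and osteopontin, the product of the unmeasured Spp1, binds CD44 and several integrins. Of 9 genes for such receptors, 7 passed the filter and all 7 read lower as deposited, with a median difference of -0.27. Sdc4, chosen after its values were seen, read 6.04 on both arrays and turned slightly positive after median centring, quantile normalisation or loess centring. The alpha V integrin gene Itgav was the only one 1.5-fold lower, and both of its rows were lower, at 5.65 and 4.92 in the dimmer row and 6.99 and 6.33 in the brighter row. Itga5 differed by -0.31, Cd44 by -0.28 and Itga4 by -0.27.

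Lgmn encodes legumain, the asparaginyl endopeptidase of lysosomes that cleaves proteins and processes other proteases there. It read 8.99 and 10.04, a difference of 1.05 or 2.07-fold, which was 3.50 local spreads and ranked 102 of 12516. It stood closest to the 2-fold line, and its difference was 0.98 after quantile normalisation and 0.99 after loess centring, each of which left 2 members 2-fold higher. Among 12 endosomal proteases, cystatins and receptors that passed the filter, 8 read higher and 4 lower, with a median of 0.17. Csta2, a stefin that inhibits cathepsins, read 5.45 and 7.49, close to background in the array labelled wild type; stefin A genes are close copies, so its probes can be shared. The cathepsin genes Ctsl and Ctsz differed by 0.59 and 0.51. The nucleic acid sensor Tlr7 read 8.53 and 8.96, while Tlr9, of the same endosomal family and chosen after its values were seen, differed by -0.20. Cst3, the gene of cystatin C, a secreted inhibitor of such proteases, read 13.03 and 13.09, also chosen after its values were seen.

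Ch25h encodes cholesterol 25-hydroxylase, which makes 25-hydroxycholesterol, an oxysterol that restrains cholesterol synthesis. Its dimmer row read 6.61 and 7.46 and its brighter row 10.60 and 11.48. The rows differed between the arrays by 0.84 and 0.88, so rows of very unlike brightness gave nearly the same difference. Their mean, 0.86 or 1.82-fold, was 2.76 local spreads and ranked 174 of 12516. Of 9 genes of oxysterol synthesis, breakdown and sensing, 8 read higher and 1 lower, with a median of 0.14. Cyp27a1, the mitochondrial sterol 27-hydroxylase, read 6.57 and 7.16 and was the only one 1.5-fold higher. The oxysterol receptor gene Nr1h3 (LXR alpha) read 6.57 and 6.96, and Insig1, an endoplasmic reticulum sterol sensor, read 7.14 and 7.45. Hsd3b7, which acts on oxysterols in bile acid synthesis, read 9.23 and 8.86.

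Apoe encodes apolipoprotein E, the lipid carrier that macrophages secrete and a ligand of TREM2. Its row read 6.51 and 6.84, a difference of 0.34 or 1.26-fold, which was 1.22 local spreads and ranked 1702 of 12516. The wild type value was 1.13 above background and brighter than 98.9% of the receptor genes that mark background. Of 8 apolipoprotein, receptor and transporter genes that passed the filter, 3 read higher and 5 lower. Their median was -0.19 and their mean 0.06, of opposite sign. The apolipoprotein genes Apoc1 and Apoc2 were among the higher ones. Apoc1 read 10.03 and 10.65 and Apoc2 read 7.54 and 7.93, whereas the efflux transporter gene Abca1 read 6.04 and 5.58. Lrpap1, the chaperone of the LDL receptor family, differed by 0.84, and the receptor genes Lrp1, Lrp8 and Scarb1, chosen after their values were seen, by -0.17, -0.20 and -0.23.

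The galectin members are sugar-binding proteins that bind glycans outside the cell and, for galectin-3, damaged lysosomes inside it. Lgals1 read 13.06 and 13.16, a difference of 0.10, with 80 rows brighter than it with the wild type label and 63 with the knockout label. Lgals3 read 9.77 and 9.94, a difference of 0.17. The bins of mean level that hold them had median differences of 0.12, for the brightest bin with Lgals1, and 0.15. Of 6 other galectin-family genes that passed the filter, 3 read higher and 3 lower, with a median of -0.02. None was 1.5-fold apart, and 92.9% of all genes analysed were less than 1.5-fold apart. Lgals12, left out by the filter and chosen after its values were seen, read 5.27 and 4.48, both under background. Lgals4 read 8.24 and 7.75, Lgals7 5.07 (under background) and 5.42, and Lgals3bp, a secreted galectin-3 ligand, 9.55 and 9.72. Lgalsl read 5.47 and 5.31.

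Hvcn1 encodes the voltage-gated proton channel that offsets the charge moved by the phagocyte NADPH oxidase. It read 7.72 and 7.70, a difference of -0.02, the smallest of the members, and its sign was positive after median centring. A further row annotated to both Tctn1 and Hvcn1 read 5.59 and 5.39 and was not counted as Hvcn1. Of 7 oxidase genes that passed the filter, 3 read higher and 4 lower. None was 1.5-fold apart, and 92.9% of all genes analysed were less than 1.5-fold apart. Cybb, the catalytic subunit, read 10.93 and 10.74, and Ncf1, a cytosolic subunit, 7.39 and 7.62. The small GTPase genes Rac2 and Rac1 differed by -0.22 and -0.17.

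The upstream sequences of the 4 members at least 1.5-fold higher are shown so that the genes can be compared at their starts. The bases are the 250 before each RefSeq start, from a RefSeq table of promoters (GRCm38.p6), 5′ to 3′ in the direction of the gene: Trem2 at chr17:48346151-48346400 on the plus strand, Gpnmb at chr6:49036268-49036517 on the plus strand, Lgmn, upstream start at chr12:102439729-102439978 on the minus strand, Lgmn, downstream start at chr12:102439093-102439342 on the minus strand, and Ch25h at chr19:34475149-34475398 on the minus strand. Capitals mark matches on either strand to 5 motifs chosen after the values were seen. These were the E-box CACGTG, the M-box TCATGTG, a loose AP-1 pattern TGANTCA, the cAMP response element (CRE) TGACGTCA and the PU.1 core GAGGAA. N stands for any base.
Trem2: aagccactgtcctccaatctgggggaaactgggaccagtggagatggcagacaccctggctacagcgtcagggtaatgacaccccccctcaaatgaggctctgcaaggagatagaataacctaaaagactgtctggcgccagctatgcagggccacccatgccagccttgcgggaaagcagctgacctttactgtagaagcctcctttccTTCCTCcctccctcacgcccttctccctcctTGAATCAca
Gpnmb: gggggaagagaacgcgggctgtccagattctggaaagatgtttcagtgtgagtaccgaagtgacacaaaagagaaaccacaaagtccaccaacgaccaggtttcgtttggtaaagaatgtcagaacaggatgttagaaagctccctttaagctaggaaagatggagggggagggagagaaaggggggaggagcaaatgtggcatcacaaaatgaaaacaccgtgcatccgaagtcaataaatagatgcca
Lgmn, upstream start: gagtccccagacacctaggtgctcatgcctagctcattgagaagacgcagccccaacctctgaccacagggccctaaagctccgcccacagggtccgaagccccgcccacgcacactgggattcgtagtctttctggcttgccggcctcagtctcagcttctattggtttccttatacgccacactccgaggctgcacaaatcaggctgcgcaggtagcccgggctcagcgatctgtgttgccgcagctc
Lgmn, downstream start: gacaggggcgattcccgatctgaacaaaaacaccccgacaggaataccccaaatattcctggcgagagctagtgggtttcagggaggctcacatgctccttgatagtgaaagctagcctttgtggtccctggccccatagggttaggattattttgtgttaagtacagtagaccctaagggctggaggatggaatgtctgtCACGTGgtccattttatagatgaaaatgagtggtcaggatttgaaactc
Ch25h: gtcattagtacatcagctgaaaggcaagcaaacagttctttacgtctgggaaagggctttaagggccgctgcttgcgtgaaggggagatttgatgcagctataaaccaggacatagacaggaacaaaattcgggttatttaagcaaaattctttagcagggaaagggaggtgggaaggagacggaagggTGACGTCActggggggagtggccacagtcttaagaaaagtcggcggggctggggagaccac

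The CRE lay 61 to 54 bases before the Ch25h start, and 1.55% of all 32851 start-site windows of that length hold one. A match to the loose AP-1 pattern, with the letters TGAATCA, lay 9 to 3 bases before the Trem2 start. Of all windows, 6.75% hold a match to that pattern. The pattern takes any base at its centre, here A, and is looser than the usual AP-1 site, which has C or G there. A PU.1 core lay 40 to 35 bases before the Trem2 start, where 23.3% of windows hold one. The downstream start of Lgmn had an E-box 49 to 44 bases before it, a motif in 6.02% of windows, and the upstream start had no match. Gpnmb had none of the 5 motifs in this window. No matches overlapped each other in the printed windows. RefSeq starts were found for 7 of the 10 members, with 11 starts in all, and Tyrobp, Lgals1 and Hvcn1 were not among them. The M-box, present in 3.25% of windows, was in none of the 11. The remaining matches were PU.1 cores in 2 of 3 windows of Apoe and 1 of 2 of Spp1, and the Lgals3 window had no match. A match is a string of letters and not a bound site.

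Further genes reported for lipid-associated or lysosome-loaded macrophages, 29 of which passed the filter, had a median difference of 0.28, close to that of the members. Of these, 22 read higher and 7 lower. Among them 8 were at least 1.5-fold higher, as were 4.45% of all genes analysed, and 1 was 1.5-fold lower, as were 2.66%. The list is bright, with means of 10.33 and 10.67 over its 31 named genes. The brightest bin, which holds Gpnmb at 10.56 as well as Tyrobp and Lgals1, had a median difference of 0.12. Igf1, a growth factor, read 7.06 and 9.67, a difference of 2.61 that exceeded that of every member. The lysosomal collagenase gene Ctsk differed by 1.32, the lysosomal tetraspanin gene Cd63 by 1.28 and the vesicle protein gene Syngr1 by 0.95. The elastase gene Mmp12 differed by 0.77, and the fatty acid binding protein genes Fabp5 and Fabp4 by 0.72 and 0.62. The 4 rows of Fabp5 were unequal, with differences of 0.33 in the brighter pair and of 1.002 and 1.208 in the others. Lpl, the lipoprotein lipase, went the other way in both of its rows, by -0.71 and -0.72. Cd9, chosen after its values were seen, averaged -0.54 only through its dim row, which read 7.06 and 5.95, while its bright row read 13.33 and 13.36. Of this list, 4 genes are also alveolar macrophage markers, and 5 genes stand in 2 of the 10 related lists.

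**Figure D3:**
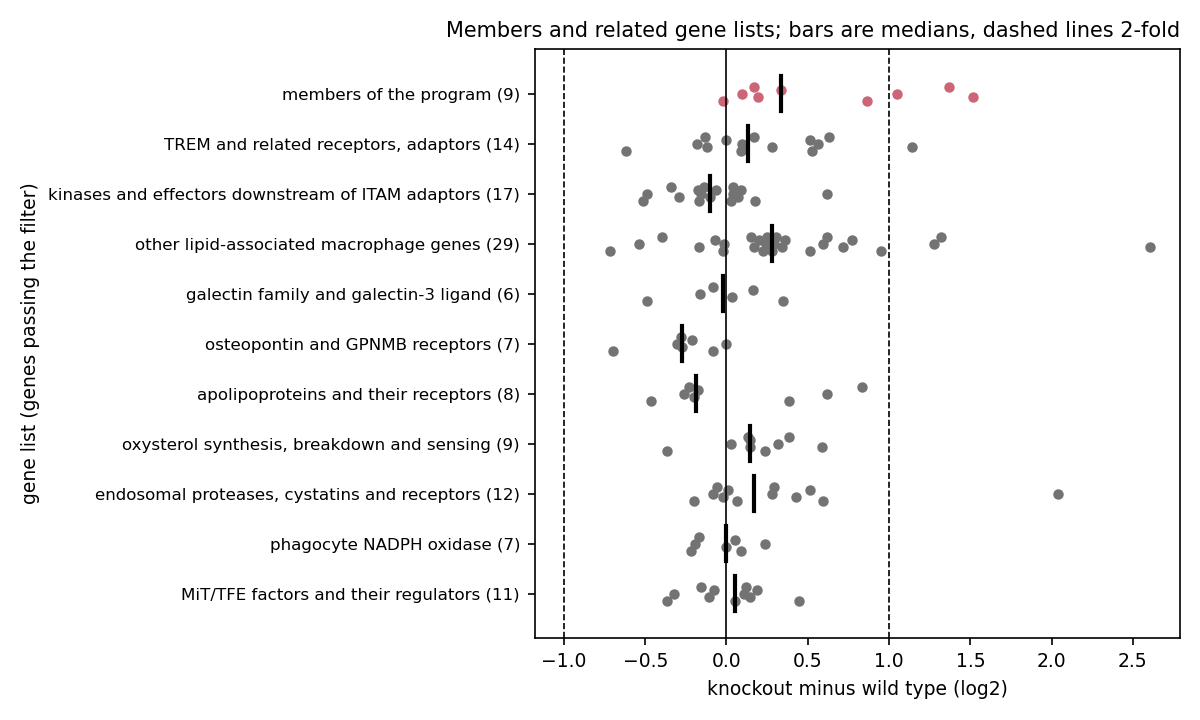
Difference between the arrays (knockout minus wild type, log2) for the 9 measured members in red and for the genes of 10 related lists in grey, each list on its own line with its number of genes. Black bars are medians; the members' bar at 0.34 and that of the other lipid-associated genes at 0.28 lie right of 0, and that of the osteopontin and GPNMB receptors at -0.27 lies left of it.

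Markers of other cells also differed between these arrays, and their part in the members' differences was not tested. Interstitial or monocyte-derived macrophages are known to express several of the members. Of their 13 markers that passed the filter, 11 read higher in the array labelled knockout, 6 of them by at least 1.5-fold, with a median of 0.30. An offset of 32 left 3 of them 1.5-fold higher and a median of 0.19, while a stricter filter, at the 75th percentile of rows, gave a median of 0.64 over 8 markers. Summed over the 14 named markers, the linear signal was 3021 and 3844 units, and 11 and 13 of the 14 lay above background. Cd14, chosen after its values were seen, read 10.79 and 10.84 and was the largest part of both sums. Ms4a7 read 8.06 and 9.31 and Tmem176a 7.19 and 8.28, whereas Cd163, chosen after its values were seen, lay below background on both arrays at 4.88 and 5.06. Monocyte markers read lower in 7 of 9, with a median of -0.69 and a summed signal of 2935 and 2196 units. With no filter 9 of 11 read lower and the median was -0.38. Fn1 differed by -1.54 and Ms4a4c by -1.33. Neutrophil markers read higher in 9 of 13, with a median of 0.40 and a summed signal of 7177 and 9811 units. S100a8 read 11.44 and 12.08 and S100a9 11.63 and 11.83, and together they made up most of both sums. Of the 13 markers, 5 were at least 1.5-fold higher and 1, Csf3r, was 1.5-fold lower, at -0.64. S100a8, S100a9 and Csf3r were chosen after their values were seen. Of 12 eosinophil, mast cell and basophil markers, 1 and 4 lay above background. Only 3 passed the filter, 2 of them higher and 1 lower, with a median of 0.37. Prg2 read 4.71, under background, and 5.76, whereas Hdc read 6.13 and 5.48. T and NK cell markers read higher in 7 of 10, with a median of 0.29 and sums of 1202 and 1618 units, and 7 and 9 of the 12 named lay above background. Gzma, the gene of a cytotoxic granule protease, read 7.09 and 8.23. Endothelial markers read higher in 5 of 7, with a median of 0.05 and sums of 536 and 685 units. The 2 at least 1.5-fold higher were Cav1, at 5.36, just under background, and 6.49, and Calcrl, at 7.01 and 7.94. With no filter 6 endothelial markers read higher and 6 lower, with a median of -0.04. Airway and alveolar epithelial markers read higher in 10 of 17, with a median of 0.16 and sums of 8143 and 9730 units, and differed in opposite directions. Bpifa1 read 7.32 and 9.78 and Scgb3a1 8.07 and 9.53, both genes of secreted airway proteins, whereas the epithelial adhesion gene Epcam read 8.09 and 6.09. Scgb1a1, the club cell secretoglobin gene, chosen after its values were seen, read 12.26 and 12.39 and made up most of both sums. Alveolar macrophage markers summed to 63788 and 66954 units, with a median of 0.12. Of these 18 markers, 11 read higher and 7 lower. Krt79 differed by -0.98 and the sort marker Siglecf by -0.73, and these were the 2 markers 1.5-fold lower. Fabp4, with a difference of 0.62, was the only marker of this list 1.5-fold higher.

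**Figure D4:**
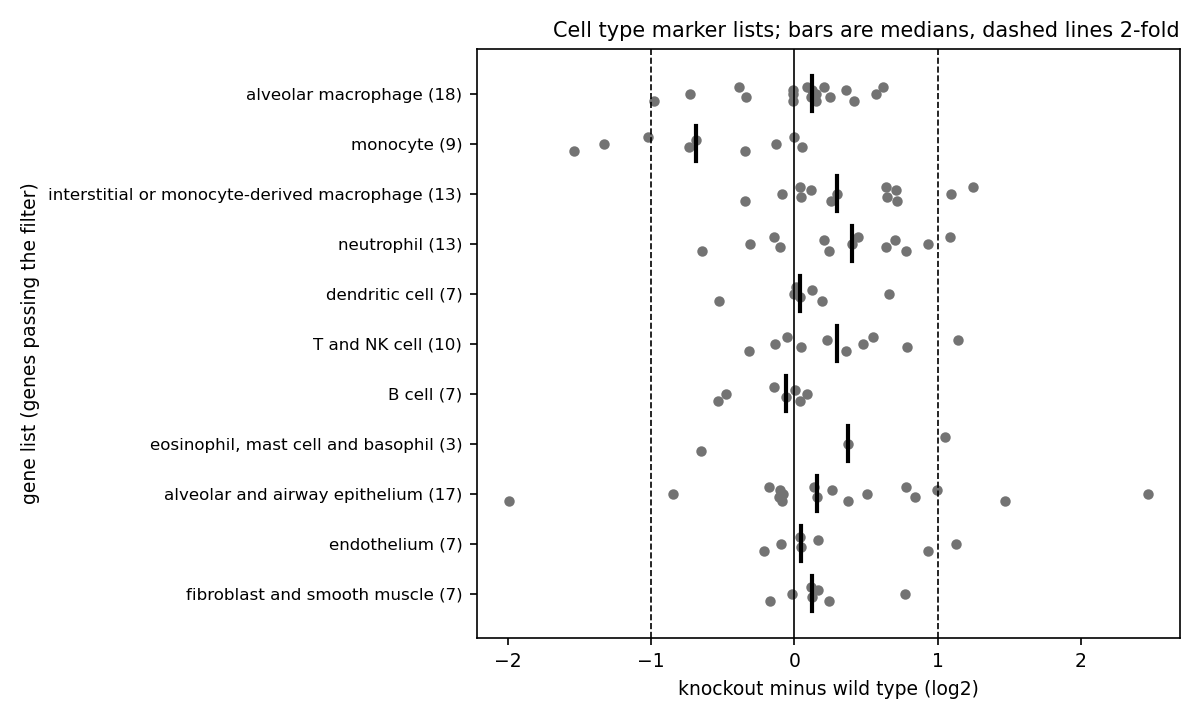
Difference between the arrays (knockout minus wild type, log2) of the genes of 11 marker lists, each point a gene that passed the filter and each black bar a median. The monocyte bar lies left of 0 at -0.69, and those of interstitial macrophages and neutrophils lie right of it at 0.30 and 0.40. The bar of eosinophils, mast cells and basophils, from 3 genes, lies at 0.37.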

How the data were processed

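RNA of sorted alveolar macrophages was measured on 2 Affymetrix arrays, 1 labelled wild type and 1 labelled knockout. The deposited log2 values were made by the authors with RMA, a background correction, normalisation between arrays and summary of each row's probes, per the submitters' processing notes. Its version, the annotation and the build are not stated there. That the logs are to base 2 follows from RMA and from the range of the values. Of the 41345 rows, 23521 had 1 gene symbol in a table of the platform's annotation, 1814 had several and 16010 were not listed, and only the first kind was named. Rows of a gene were averaged, and genes with a mean of both arrays of at least 5.13 were kept. Local medians and local spreads were taken in 20 bins of mean level with about equal numbers of genes. The array medians were 5.17 and 5.10. Precision is limited by the number of arrays, and no p-value or standard error was computed.

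The members and gene lists were chosen with earlier results of these data known. All members are named with both values, and from each related list up to 4 genes with the largest absolute difference and any other gene at least 1.5-fold apart; genes outside this rule are marked in the text. Promoter sequences were matched by symbol. Alternatives were other filters (none, the receptor-gene background, the 75th percentile of rows), median centring, quantile normalisation, loess centring (span 0.3), adding 32 to linear signals, a gene's brightest row alone, a fold of 3, 3 local spreads, and means in place of medians. The code was tested on simulated data. Python 3.11.15, numpy 2.4.6, pandas 2.3.3, statsmodels 0.14.6 and matplotlib 3.10.9 were used.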

Additional observations from a re-analysis of the deposited data

How the results depend on the processing

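No paired analysis was possible because there is 1 array for each genotype, and no array can be left out. Over 8 other settings, Trem2 differed by 1.45 to 1.54, Gpnmb by 1.29 to 1.39, Lgmn by 0.98 to 1.07, Ch25h by 0.77 to 0.89, Apoe by 0.26 to 0.36, Tyrobp by 0.13 to 0.22, Lgals3 by 0.08 to 0.19 and Lgals1 by 0.03 to 0.12. Hvcn1 ranged from -0.04 to 0.00 and has no settled sign. The number of members 1.5-fold higher was 4 under each of them, and the number 2-fold higher was 3, or 2 after quantile normalisation or loess centring. A threshold of 3-fold left 0 members, and 3 local spreads left 3. The median of the members ranged from 0.26 to 0.36 over those settings, and their mean was 0.62. The median of the apolipoprotein and receptor list was 0.39 instead of -0.19 when the filter stood at the 75th percentile of rows, where fewer of its genes passed. The medians of the other related lists moved by less than 0.30, the median local spread of the members. Among the marker lists without a filter, the monocyte median was -0.38 instead of -0.69, and that of T and NK cells 0.14 instead of 0.29. The endothelial median without a filter was -0.04 instead of 0.05. The stricter filter at the 75th percentile gave 0.64 instead of 0.30 for interstitial macrophages, 0.64 instead of 0.40 for neutrophils, 0.66 instead of 0.29 for T and NK cells, 0.46 instead of 0.16 for epithelium, and 0.93 instead of 0.05 for endothelium, of which 1 gene was left. The eosinophil, mast cell and basophil median was -0.65 instead of 0.37 when the filter stood at the receptor-gene background, which left 1 gene. Amplified cDNA from 1 array a genotype gives no measure of error. Signals near the top or the bottom of the scale can compress folds, which was not tested here.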

Other observations

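Kinases and effectors that act below receptors with activating adaptors such as TYROBP were described as a list of their own. Of 17 that passed the filter, 10 read lower and 7 higher, with a median difference of -0.10. The kinase gene Syk, which docks on the phosphorylated adaptor, read 7.45 and 7.11, the Src-family kinase gene Fgr 8.37 and 7.86, and the phosphoinositide 3-kinase adaptor gene Pik3ap1 9.12 and 8.63. Vav3, a guanine nucleotide exchange factor, read 5.55 and 6.18 and was the only one 1.5-fold apart.

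Genes of the MiT/TFE transcription factors, which drive lysosomal genes and Gpnmb, and of their regulators formed another list. Of 11 that passed the filter, 6 read higher and 5 lower, with a median of 0.05. None was 1.5-fold apart, and 92.9% of all genes analysed were less than 1.5-fold apart. Rragd, left out by the filter and chosen after its values were seen, read 4.27 and 5.13, both under background. Without the filter it was the 1 gene of the list at least 1.5-fold higher. Mitf differed by -0.08, Tfeb by -0.11 and Tfe3 by 0.11, all chosen after their values were seen, and Tfec read 11.32 and 10.99. Fnip2, a partner of folliculin, differed by 0.44, the calcineurin gene Ppp3cb by -0.36, and the Rag GTPase gene Rragc by 0.19. Transcript levels do not show where these factors sit in the cell.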
